A study of Mus musculus with 16 samples.

Results

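The cornified envelope genes of the mouse were followed here through sorted skin cells: 50 genes out of the 55487 gene IDs in the count table. They were taken by name, as every *Lce* and *Sprr* gene with a number in its symbol (14 *Lce1*, 6 *Lce3*, *Lce6a*, 2 *Sprr1*, 13 *Sprr2*, *Sprr3* and *Sprr4*), together with *Lor*, *Ivl*, *Sbsn*, *Cnfn*, *Flg*, *Flg2*, *Hrnr*, *Crnn*, *Rptn*, *Tgm1*, *Tgm3* and *Casp14*. The rule uses no measured value. RNA was sequenced in bulk from cells of skin taken 6 h after a period of hypobaric pressure (suction used as a stretch), and of unstretched skin of the same area. Sorting was by CD45, a surface protein of leukocytes, and the 16 libraries formed 4 groups of 4: stretched stromal, control stromal, stretched immune and control immune, where the immune libraries are the CD45+ and the stromal libraries the CD45- cells. Strain, sex and age of the mice, and whether each library came from its own animal, are not stated in the labels, so p-values measure the spread between these libraries, which may be technical.

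Keratinocytes that leave the basal layer of the epidermis cross-link a protein shell beneath their membrane, the cornified envelope, and die as the flat corneocytes of the skin barrier. Involucrin (*Ivl*) and the small proline-rich proteins (*Sprr*) are laid down first, loricrin (*Lor*) and the late cornified envelope proteins (*Lce*) reinforce the shell in the granular layer, and transglutaminases (*Tgm1*, *Tgm3*) make the cross-links. Most of these genes lie side by side in one cluster, the epidermal differentiation complex, and *Sprr1a* is also known from injured and stressed tissues outside the epidermis.

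The separation was clear in the data. *Ptprc*, which encodes CD45, ranged from 0.913 to 3.37 CPM (read counts scaled to sequencing depth with the TMM method) in stretched stromal, from 0.0641 to 1.29 in control stromal, from 387 to 699 in stretched immune and from 219 to 609 in control immune libraries. Total counts were 21955174 to 26944965 in stretched stromal and 13563586 to 20467010 in control stromal libraries, and 7018743 to 20095580 in stretched immune and 2645421 to 6662268 in control immune libraries. Stretched libraries were thus deeper than control libraries in each fraction without overlap, so depth and stretch cannot be told apart. Control immune library 4 and stretched stromal libraries 7 and 8 stood apart: olfactory and vomeronasal receptor genes took 5942, 408 and 200.3 CPM on the scale of the library total, against 17.8 to 68.7 in the other 13. These 3 libraries also had reads on 32977 to 35821 genes, against 20429 to 25955, and results are given without them where this changes a call. In bulk libraries, fewer cells of a type and less RNA per cell cannot be told apart.

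The 3 members with the most reads were *Sprr1a* (6841 reads over the 16 libraries), *Lce1m* (5300) and *Lor* (4218), a first envelope precursor and a pair of late ones. Their promoters are printed here because the genes lie within one cluster on chromosome 3 and all are read from the minus strand. The windows run from upstream of the transcription start into the first transcribed bases (RefSeq, GRCm38.p6) and span chr3:92083093-92083392 for *Lor*, chr3:93019012-93019311 for *Lce1m* and chr3:92485832-92486131 for *Sprr1a*. Capitals mark the letters TATAAA (the TATA box motif) and TGANTCA (the AP-1 motif), searched on both strands.
Lor: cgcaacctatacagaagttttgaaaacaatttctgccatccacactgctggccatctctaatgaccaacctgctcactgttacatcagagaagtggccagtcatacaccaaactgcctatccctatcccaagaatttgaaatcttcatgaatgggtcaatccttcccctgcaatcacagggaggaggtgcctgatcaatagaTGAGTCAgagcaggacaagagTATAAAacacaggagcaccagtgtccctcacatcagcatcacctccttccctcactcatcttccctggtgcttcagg
Lce1m: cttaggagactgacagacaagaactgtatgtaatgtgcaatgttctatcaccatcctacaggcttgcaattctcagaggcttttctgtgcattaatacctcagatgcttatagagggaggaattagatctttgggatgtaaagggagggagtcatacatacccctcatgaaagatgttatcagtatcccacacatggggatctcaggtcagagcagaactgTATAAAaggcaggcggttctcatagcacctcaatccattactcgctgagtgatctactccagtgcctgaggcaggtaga
Sprr1a: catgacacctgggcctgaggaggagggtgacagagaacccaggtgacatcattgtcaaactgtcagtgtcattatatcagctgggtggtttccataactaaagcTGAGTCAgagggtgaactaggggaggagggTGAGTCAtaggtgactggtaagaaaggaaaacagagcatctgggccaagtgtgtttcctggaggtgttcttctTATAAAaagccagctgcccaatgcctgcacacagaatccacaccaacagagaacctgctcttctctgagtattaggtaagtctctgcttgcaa
All 3 windows hold TATAAA, the *Lor* window holds 1 AP-1 motif, the *Sprr1a* window holds 2, and the *Lce1m* window holds 0. Of 47 windows for 46 member genes, 44.7% hold TATAAA, against 13.6% of all 32851 windows in the table. The AP-1 letters are in 34.0% of member windows and 7.81% of all windows, while AACCNGTT, the motif of the grainyhead-like factors, is in 2.13% and 2.09%. The AP-1 share is not a trait of all families. Windows with these letters include *Sprr2b*, *Sprr2d*, *Sprr2e*, *Sprr2f*, *Sprr2h*, *Sprr2i* and *Sprr2k*, copies of one family, and no *Lce1* or *Lce3* window holds them. A match is a description of these letters and not a bound site.

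Of the 50 members, 45 had a read in at least 1 library, and they held 26256 reads in all. The *Lce1* genes took 36.1% of these reads, the precursors *Lor*, *Ivl*, *Sbsn* and *Cnfn* 31.6%, *Sprr1a* and *Sprr1b* 26.5%, and the enzymes 4.08%. The *Sprr2* genes held 0.628%, the S100-fused proteins (filaggrin and its relatives, whose N-terminal part resembles an S100 protein) 0.537% and the *Lce3* genes 0.328%. *Sprr2a1*, *Sprr2b*, *Sprr2c-ps*, *Lce3b* and *Crnn*, the gene of cornulin, had 0 reads throughout. A count of 0 allows up to 0.101 CPM in the deepest library and up to 0.737 CPM where it allows most (3 counts), and these floors cover counting error only. The *Lce1* genes other than *Lce1m* share 9.12% to 27.1% of their 50-base stretches with other genes, so the split of reads among them is uncertain. *Sprr2a1* and *Sprr2a2* share 96.3% and 96.5%, whereas *Lor*, *Lce1m* and *Sprr1a* share 0%.

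**Figure D1:**
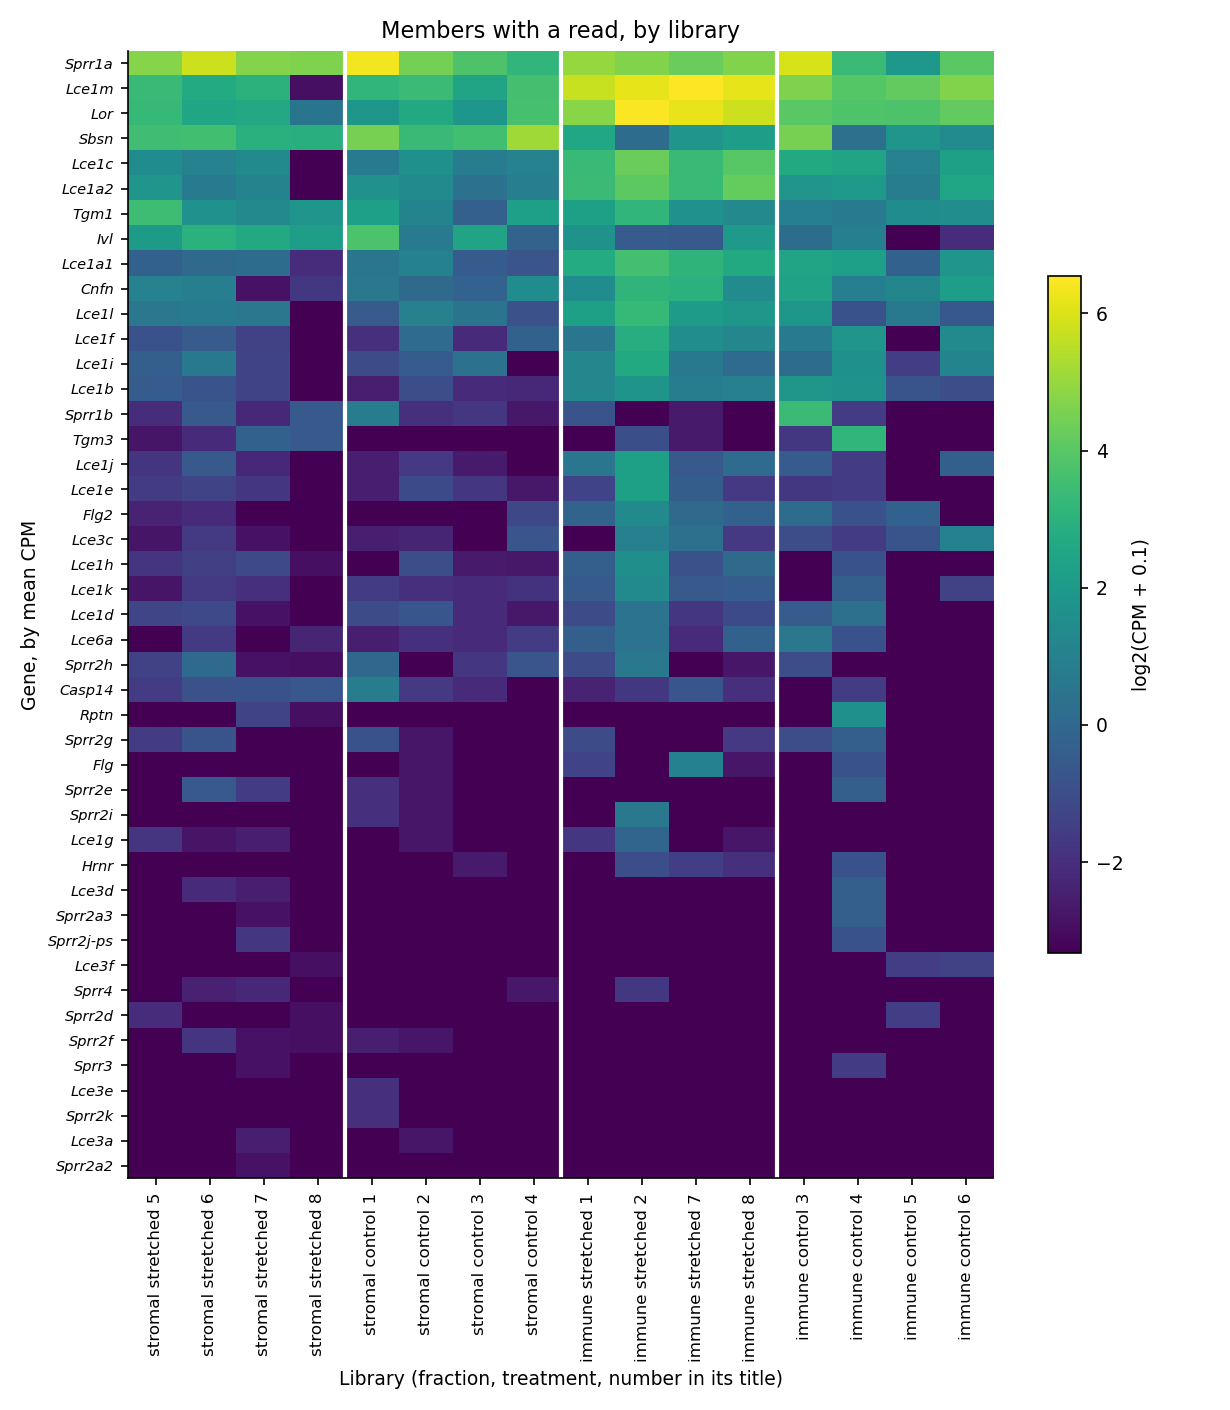
Heat map of log2(CPM + 0.1) for the 45 members with a read (rows, by mean CPM) in the 16 libraries (columns, by group, with white lines between groups). *Lor* and the upper *Lce1* rows are brightest in the stretched immune libraries, and stretched stromal library 8 is dark across the *Lce1* rows.

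Per kilobase of transcript, *Sprr1a* stood highest among the members in stretched stromal libraries and *Lce1m* in stretched immune libraries. *Sprr1a* averaged 41.4 ± 18.1 RPKM (reads per kilobase of transcript, at the CPM scale; SD, n = 4) in stretched stromal, 39.3 ± 42.1 in control stromal, 31.6 ± 6.05 in stretched immune and 28.5 ± 32.9 in control immune libraries. *Lce1m* averaged 6.95 ± 4.90, 10.6 ± 3.29, 82.5 ± 19.1 and 23.7 ± 5.62 RPKM in the same order of groups. *Lor* averaged 3.17 ± 1.95, 3.65 ± 2.39, 34.7 ± 15.1 and 8.68 ± 1.17 RPKM. *Sbsn*, at 3.83 ± 0.940 and 8.10 ± 4.78 RPKM in stretched and control stromal libraries, was within 1 SD of *Lor* in the stretched ones. The spread of *Sprr1a* in the control groups was as large as its mean, so its level there could not be ordered against *Lce1m*.

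Loricrin, the most abundant protein of the mature envelope, had its highest counts in cells that had been sorted as leukocytes. *Lor* (ENSMUSG00000043165, minus strand of chr3:92080271-92083142, GRCm38) had 9.77, 5.41, 6.08 and 1.32 CPM in stretched stromal libraries 5 to 8. It had 3.63, 6.23, 3.52 and 12.6 CPM in control stromal libraries 1 to 4. It had 27.4, 89.9, 74.5 and 55.3 CPM in stretched immune libraries 1, 2, 7 and 8, against 16.2, 14.003, 13.5 and 18.01 CPM in control immune libraries 3 to 6. All stretched immune values lay above all control immune values, and every immune value lay above every stromal one. *Lce1m* (ENSMUSG00000027912, minus strand of chr3:93017810-93019060), a late cornified envelope protein, followed the same order. Its values were 9.95, 6.43, 7.90 and 0.0338 CPM in stretched stromal libraries and 9.004, 10.4, 5.38 and 12.2 CPM in control stromal libraries. They were 52.2, 71.5, 93.0 and 71.7 CPM in stretched immune and 24.6, 15.2, 17.9 and 25.1 CPM in control immune libraries. Again no immune library overlapped a stromal one, and the stretched and control immune libraries lay apart.

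**Figure D2:**
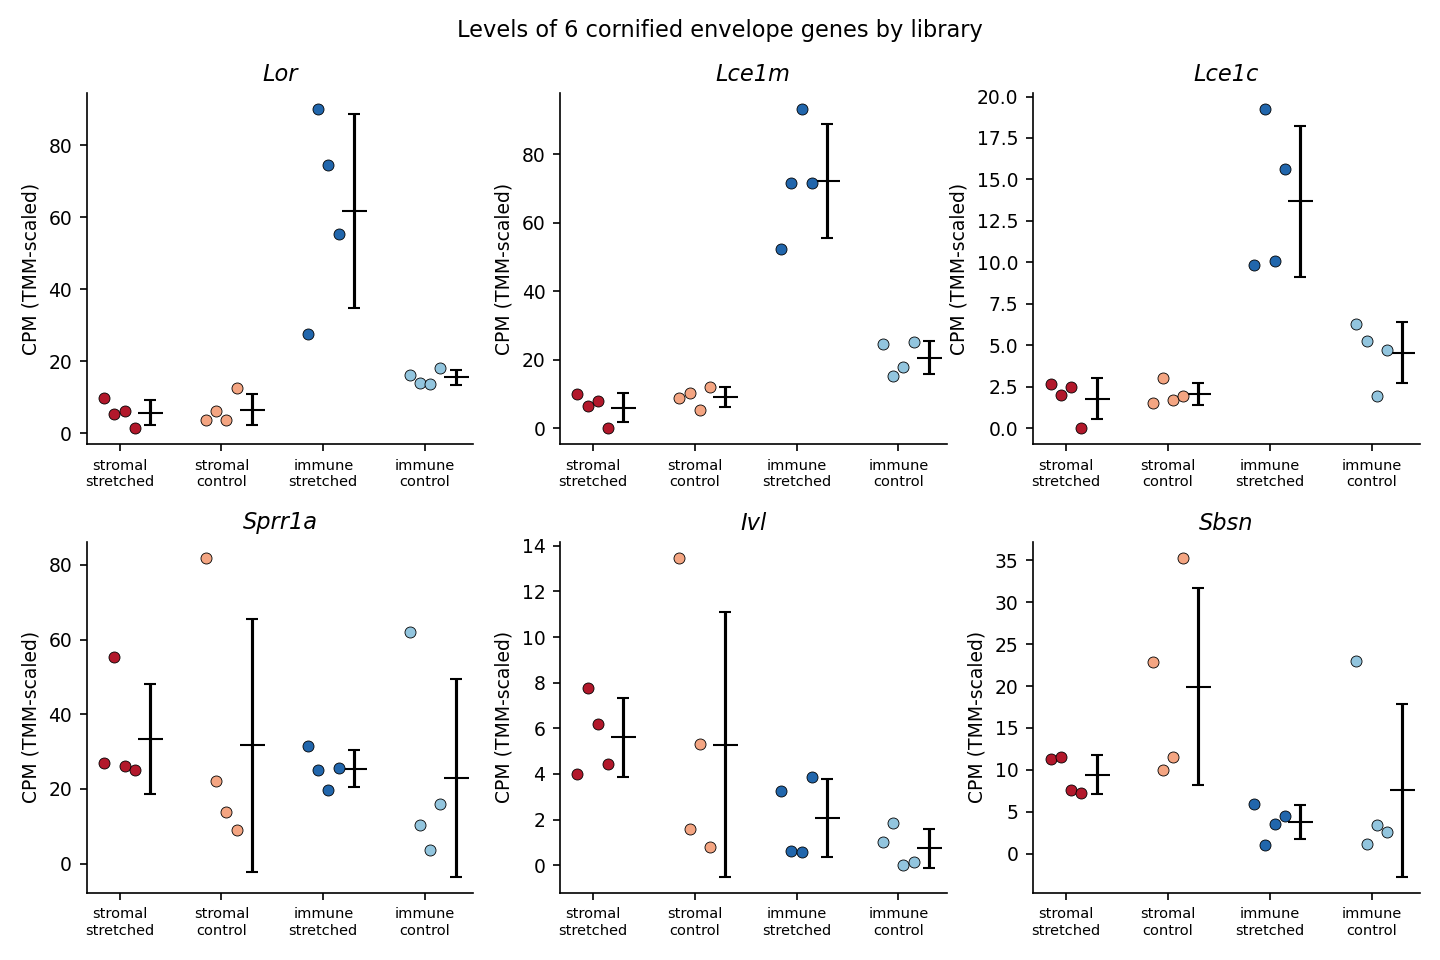
CPM (TMM-scaled, linear axes) of 6 members in each library (points), with the group mean and SD (bars, n = 4). *Lor*, *Lce1m* and *Lce1c* are highest in the stretched immune libraries, where *Lor* lies between 27.4 and 89.9 CPM, while *Sprr1a*, *Ivl* and *Sbsn* are not.

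In stretched skin, *Lor* and 10 other members were lower in the stromal than in the immune fraction, and only *Sbsn* among the members tested was called higher. *Lor* averaged 5.64 ± 3.46 CPM in stretched stromal and 61.8 ± 26.9 CPM in stretched immune libraries (SD, n = 4 each), a log2 fold change of -3.32 ± 0.56 (SE) with an adjusted p of 0.00118 by edgeR's quasi-likelihood test with Benjamini-Hochberg adjustment. *Lce1m* averaged 6.08 ± 4.28 and 72.1 ± 16.7 CPM, a log2 fold change of -3.43 ± 0.87 (adjusted p = 0.00924, edgeR). Besides *Lce1m*, 8 more *Lce1* genes were called lower, with log2 fold changes between -3.39 (*Lce1a1*, adjusted p = 0.000905, edgeR) and -2.18 (*Lce1l*, adjusted p = 0.0498). They were *Lce1a1*, *Lce1a2*, *Lce1b*, *Lce1c*, *Lce1f*, *Lce1j*, *Lce1k* and *Lce1l*, while *Lce1i* (-1.94 ± 0.96, adjusted p = 0.116, edgeR) did not pass. Summed over all 14 genes, *Lce1* stood at 21.1, 16.97, 16.7 and 0.203 CPM in stretched stromal libraries 5 to 8, against 93.4, 162, 134 and 124 CPM in stretched immune libraries 1, 2, 7 and 8. *Flg2*, the filaggrin-2 gene, rested on few reads (2, 3, 0 and 0 in stretched stromal, against 8, 12, 15 and 14 in stretched immune libraries) and had a log2 fold change of -4.19 ± 0.85 (adjusted p = 0.00312, edgeR). *Flg2*, *Lce1b*, *Lce1f*, *Lce1j* and *Lce1k* did not pass the filter on low counts when stromal libraries alone were compared. They reached this test through the immune libraries, which favoured low stromal values, so their calls are no separate evidence of a lower stromal level.

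*Sbsn* and *Ivl* lay on the other side from *Lor*, and *Cnfn* on its side. *Sbsn* (suprabasin, ENSMUSG00000046056, plus strand of chr7:30751471-30756134) is made in the suprabasal layers. It had 11.3, 11.6, 7.59 and 7.27 CPM in stretched stromal libraries, against 5.90, 1.03, 3.55 and 4.49 CPM in stretched immune libraries. The groups did not overlap, and the log2 fold change was 1.42 ± 0.42 (adjusted p = 0.0183, edgeR). The call was lost in the fit of all 16 libraries (1.29, adjusted p = 0.141). The gene shares 9.93% of its 50-base stretches with *Tmem147os*, so without a stated strand setting part of its reads cannot be assigned. *Ivl* (involucrin, ENSMUSG00000049128, minus strand of chr3:92570902-92573735) is the scaffold on which the envelope is assembled. It had 4.02, 7.76, 6.19 and 4.43 CPM in stretched stromal libraries, against 3.24, 0.620, 0.581 and 3.86 CPM in stretched immune libraries. These groups did not overlap either, but the log2 fold change of 1.51 ± 0.58 did not pass (adjusted p = 0.0535, edgeR). *Cnfn* (cornifelin) was at 0.994 ± 1.01 CPM in stretched stromal and 5.46 ± 3.27 CPM in stretched immune libraries, with a log2 fold change of -2.34 ± 0.89 (adjusted p = 0.0507, edgeR). It was called in 9 of 17 alternatives, among them DESeq2, limma-voom and the fit of all 16 libraries.

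*Sprr1a* (ENSMUSG00000050359, minus strand of chr3:92483952-92485895), an early cross-linked precursor, was read in every library. Its values were 26.98, 55.3, 26.2 and 25.0 CPM in stretched stromal and 31.6, 25.2, 19.6 and 25.5 CPM in stretched immune libraries. The groups overlapped, and the log2 fold change was 0.52 ± 0.29 (adjusted p = 0.160, edgeR). *Tgm1*, the main cross-linking enzyme of keratinocytes, was at 11.1, 3.10, 2.40 and 3.41 CPM in stretched stromal and 4.72, 8.89, 3.10 and 2.38 CPM in stretched immune libraries. Its log2 fold change of 0.23 ± 0.57 did not pass (adjusted p = 0.751, edgeR). *Sprr1b*, the *Sprr2* genes, *Tgm3* and *Casp14*, the caspase of the cornifying cell, had too few reads to be tested in this comparison.

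**Figure D3:**
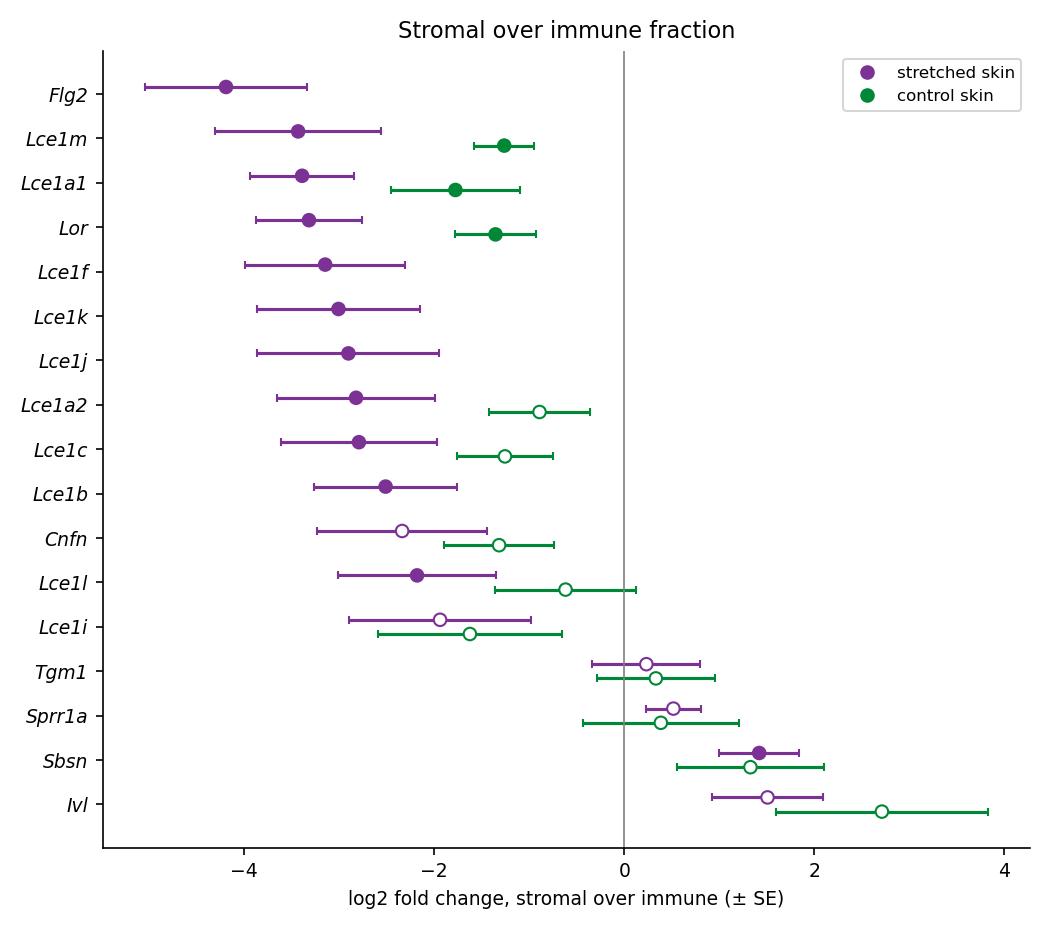
Log2 fold changes, stromal over immune (points, with SE bars), of the members tested, in stretched skin (purple) and control skin (green). Filled points passed an adjusted p of 0.05 (edgeR), the vertical line marks no difference, and *Lor*, *Lce1m* and *Lce1a1* are filled in both colours.

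In stretched skin 17 members passed the filter on low counts and 33 did not. Of the 17, 12 were called, 1 higher and 11 lower in the stromal libraries, beside 49.0% of all 17116 genes tested (25.1% higher and 23.9% lower). The groups did not overlap for 14 of the 17, beside 48.4% of all genes. The median log2 fold change was -2.79 over the 17 members and 0.06 over all genes. A member that passed the filter through the immune libraries alone had to be low in the stromal ones, so these counts describe the members tested and not all 50. This limit bears most on *Flg2*, *Lce1b*, *Lce1f*, *Lce1j* and *Lce1k*, which did not pass the filter when stromal libraries alone were compared. With offsets that remove trends on transcript length and GC content, 11 of 17 members were called, beside 8138 of all 17116 genes. Of the members 3 were higher (*Sbsn*, *Ivl* and *Sprr1a*) and 8 lower, because *Lce1c*, *Lce1j* and *Lce1l* then missed the threshold and *Ivl* and *Sprr1a* passed it. Without stretched stromal libraries 7 and 8, 10 of 22 members tested were called, beside 5402 of all 17753 genes. There *Lor* was at -2.93 (adjusted p = 0.00947, edgeR) and *Lce1m* at -3.03 (adjusted p = 0.00136), while *Lce1j* (0.150) and *Lce1k* (0.0836) lost their calls. *Lce1l* lost its call in each of 7 fits that left out 1 library (all but the one without stretched stromal 8), with adjusted p between 0.0605 and 0.0803, and *Lce1j* did so without stretched immune 2 or stretched stromal 5, 7 or 8 (0.0502 to 0.0755).

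In control skin *Lor*, *Lce1m* and *Lce1a1* were again lower in the stromal than in the immune fraction. *Lor* averaged 6.50 ± 4.26 CPM in control stromal and 15.4 ± 2.08 CPM in control immune libraries, a log2 fold change of -1.35 ± 0.43 (adjusted p = 0.0225, edgeR). *Lce1m* averaged 9.24 ± 2.87 and 20.7 ± 4.91 CPM, a log2 fold change of -1.26 ± 0.32 (adjusted p = 0.00676, edgeR). *Lce1a1* had 1.10 ± 0.651 and 3.52 ± 1.998 CPM and a log2 fold change of -1.78 ± 0.68 (adjusted p = 0.0486, edgeR), a call lost in 11 of 17 alternatives, among them the fits without control immune 3, 4 or 6 or control stromal 1, 3 or 4 (adjusted p 0.0773 to 0.131). *Lce1c* (-1.25 ± 0.51, adjusted p = 0.0602) and *Cnfn* (-1.32 ± 0.58, adjusted p = 0.0798, both edgeR) did not pass. The summed *Lce1* genes stood at 16.9, 23.5, 12.3 and 18.01 CPM in control stromal libraries 1 to 4 and at 50.9, 41.8, 24.6 and 45.4 CPM in control immune libraries 3 to 6, without overlap.

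The early precursors *Sprr1a* and *Ivl*, and also *Sbsn*, varied from library to library in the controls. *Sprr1a* had 81.9, 22.2, 13.8 and 8.89 CPM in control stromal and 62.1, 10.3, 3.69 and 15.9 CPM in control immune libraries, with a log2 fold change of 0.39 ± 0.82 (adjusted p = 0.718, edgeR). *Ivl* had 13.5, 1.58, 5.32 and 0.788 CPM in control stromal and 1.01, 1.84, 0 and 0.139 CPM in control immune libraries, with a log2 fold change of 2.71 ± 1.11 (adjusted p = 0.0632, edgeR). *Sbsn* had 22.9, 9.98, 11.53 and 35.3 CPM in control stromal and 22.9, 1.15, 3.44 and 2.63 CPM in control immune libraries. Control stromal 1 and control immune 3 were the high libraries for *Sprr1a*, and control immune 3 was the only immune control with *Sbsn* in the stromal range. Its log2 fold change was 1.33 ± 0.77 (adjusted p = 0.176, edgeR), and without control immune 3 it was 2.99 (adjusted p = 0.00226).

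Of 12 members tested in control skin (38 did not pass the filter), 3 were called, all lower in the stromal libraries, beside 49.4% of all 15142 genes tested (22.8% higher and 26.6% lower). The share of members called lower was close to that background. Only *Lor* and *Lce1m* had groups that did not overlap, beside 48.0% of all genes, and the median log2 fold change was -1.07 over the members and -0.08 over all genes. The limit of the filter given for stretched skin holds here too. Leaving out 1 library gave 1 to 5 members called, beside 6366 to 8566 of all genes. There were 5 without control immune 5 and 1 without control immune 6, control stromal 1 or control stromal 3. The call of *Lor* was lost without control stromal 1, 2 or 3 or control immune 6 (adjusted p 0.0576 to 0.0712), and that of *Lce1m* in the fit of all 16 libraries (adjusted p = 0.155). Without control immune library 4, *Ivl* was called (log2 fold change 3.74, adjusted p = 0.0312, edgeR) and *Lce1a1* was not (-1.52, adjusted p = 0.0895).

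Stretch was compared with control skin within each fraction, which asks whether the envelope genes respond within 6 h. In the immune fraction the 5 members with all stretched values above all control values were *Lor*, *Lce1m*, *Lce1a1*, *Lce1a2* and *Lce1c*, and none passed the test. *Lor* averaged 61.8 ± 26.9 CPM in stretched and 15.4 ± 2.08 CPM in control immune libraries, with a log2 fold change of 1.84 ± 0.36. *Lce1m* averaged 72.1 ± 16.7 and 20.7 ± 4.91 CPM, with a log2 fold change of 1.64 ± 0.24. Both had an adjusted p of 0.134 by edgeR, the lowest value in that comparison. The adjustment ties other genes at this value, so it does not rank *Lor* and *Lce1m* first. *Lce1a2* averaged 13.8 ± 4.10 CPM in stretched and 3.69 ± 1.63 CPM in control immune libraries (log2 fold change 1.71 ± 0.42, adjusted p = 0.148), and *Lce1c* 13.7 ± 4.56 and 4.56 ± 1.85 CPM (1.40 ± 0.44, adjusted p = 0.193, both edgeR). *Sprr1a* had a log2 fold change of -0.0043 ± 0.65, *Sbsn* of -1.15 ± 0.85 and *Tgm1* of 0.94 ± 0.55, none of which passed.

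By edgeR 0 of the 13 members tested (37 did not pass the filter) were called, beside 0.0% of all 14183 genes. At an unadjusted p under 0.05 there were 5 members and 2467 of all genes. DESeq2 called 3 of 13 members (*Lor*, *Lce1m* and *Lce1a2*), beside 781 of all 14183 genes. Limma-voom with sample weights called 2 of 13 (*Lor* and *Lce1m*), beside 888 of all 14183 genes. The edgeR fit of all 16 libraries called 1 of 18 (*Lor*), beside 667 of all 18295 genes. Without stretched immune 2, edgeR called 1 of 14 (*Lce1m*), beside 45 of all 14749 genes. Groups lay apart with the stretched libraries higher for 5 of 13 members, beside 8.55% of all genes. The median log2 fold change was 0.94 over the members, with 11 of 13 positive, and -0.02 over all genes. In the same comparison 0 markers of other cell types were called. The log2 fold changes were positive for 8 of 8 fibroblast markers (median 0.80), 8 of 8 neutrophil markers (1.16), 1 of 9 basal markers (-1.05) and 0 of 7 suprabasal markers (-1.96). On the scale of the library total, neutrophil sums were 1067, 36316, 538 and 376 CPM in stretched immune 1, 2, 7 and 8. They were 7735, 2962, 9724 and 636 CPM in control immune 3 to 6, so the neutrophil rise lay in stretched immune 2 alone. The part of the markers of all these cell types, and of the greater depth of the stretched immune libraries, in the *Lor* and *Lce1* values was not tested.

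In the stromal fraction no member was separated by stretch. *Lor* averaged 5.64 ± 3.46 CPM in stretched and 6.50 ± 4.26 CPM in control stromal libraries (log2 fold change -0.20 ± 0.56, adjusted p = 0.847, edgeR). That sign turned without stretched stromal 8 (0.13) or control stromal 4 (0.35). *Lce1m* averaged 6.08 ± 4.28 and 9.24 ± 2.87 CPM (-0.60 ± 0.81, adjusted p = 0.672, edgeR). *Sbsn* averaged 9.42 ± 2.31 CPM in stretched and 19.9 ± 11.8 CPM in control stromal libraries, with a log2 fold change of -1.07 ± 0.38 (adjusted p = 0.104, edgeR). *Tgm1*, at 5.003 ± 4.08 and 3.03 ± 1.95 CPM, had a log2 fold change of 0.72 ± 0.61 that rested on stretched stromal 5 and was -0.02 without it. *Sprr1a* (0.08 ± 0.59) and *Ivl* (0.10 ± 0.68) had log2 fold changes smaller than their errors.

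By edgeR 0 of the 12 members tested were called in the stromal fraction, beside 4.98% of all 16074 genes, and 1 member and 4309 of all genes had an unadjusted p under 0.05. DESeq2 called *Sbsn* alone as lower in stretched libraries, beside 2312 of all 16074 genes called in either direction. Limma-voom with sample weights called *Lce1m*, *Lce1a2* and *Lce1c* as lower, beside 3599 of all 16074 genes in either direction. Stretched stromal 8, a library with many receptor-gene reads, had 1, 0 and 0 reads of *Lce1m*, *Lce1a2* and *Lce1c*. The groups overlapped for every one of the 12, while they lay apart with stretched libraries higher for 7.78% and lower for 10.2% of all genes. The median log2 fold change was -0.20 over the members and 0.01 over all genes.

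The difference of the stretch effects, stromal minus immune, was fitted over all 16 libraries. *Lor* had a difference of -2.21 ± 0.71 on the log2 scale (adjusted p = 0.106, edgeR), *Lce1m* of -2.41 ± 0.95 (adjusted p = 0.155) and *Lce1a1* of -1.86 ± 0.87 (adjusted p = 0.209). *Sprr1a* had a difference of -0.07 ± 0.97 and *Sbsn* of -0.11 ± 0.97. Of the 18 members tested, 17 had a negative difference, with a median of -1.43 against -0.03 over all genes, and 0 were called, beside 0.0% of all 18295 genes. A member that passed the filter through the stretched immune libraries alone tends to a negative difference, so these values describe the members tested. At an unadjusted p under 0.05 there were 3 members and 4232 of all genes. DESeq2 called 0 of the 18 members, beside 1625 of all 18295 genes. Limma-voom with sample weights called 6 of 18 (*Lor*, *Lce1a1*, *Lce1a2*, *Lce1c*, *Lce1l* and *Lce1m*), beside 1453 of all 18295 genes. Stretched stromal 8 had 4 reads of *Lce1a1*, 1 of *Lce1m* and 0 of *Lce1a2*, *Lce1c* and *Lce1l*. The edgeR differences thus do not show that stretch acted unequally on these genes in the 2 fractions.

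**Figure D4:**
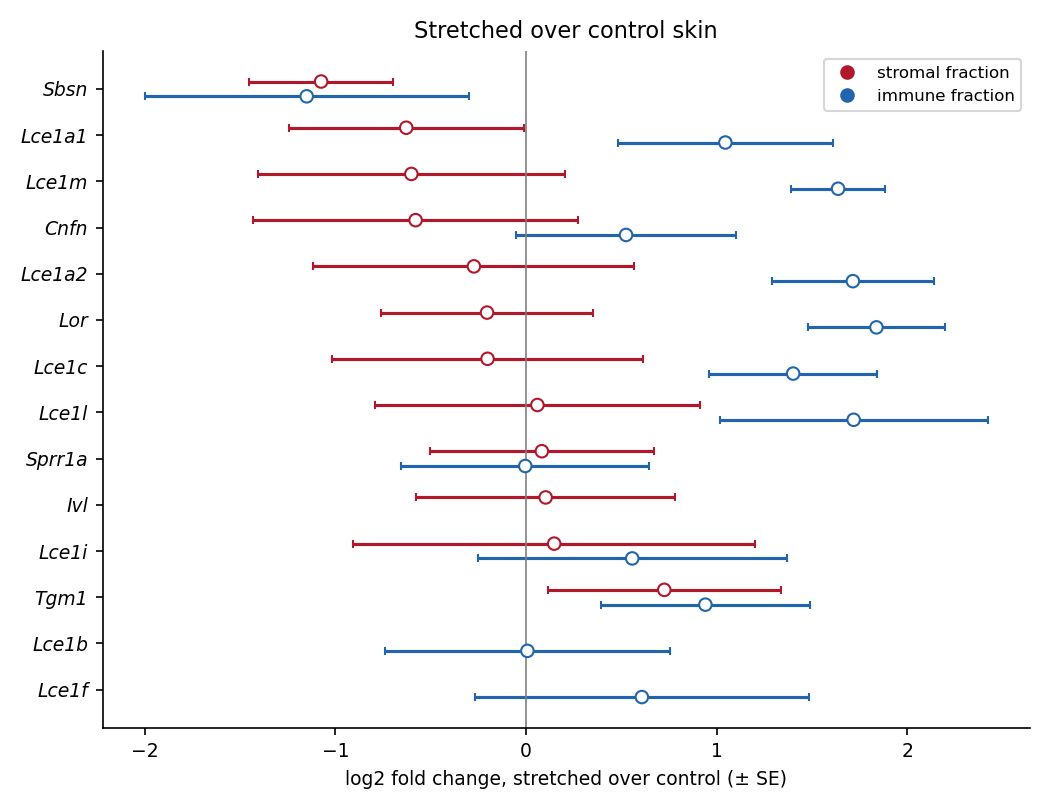
Log2 fold changes, stretched over control (points, with SE bars), of the members tested in the stromal (red) and immune (blue) fraction. No point passed an adjusted p of 0.05 (edgeR), and *Lor*, *Lce1m*, *Lce1a2*, *Lce1c* and *Lce1l* lie between 1.40 and 1.84 in the immune fraction.

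The balance of late to early envelope transcripts differed between single libraries, a description made after the values were seen. Stretched stromal library 8 had 39 reads of *Lor*, 1 of *Lce1m* and 6 of all *Lce1* genes, but 740 of *Sprr1a*, 131 of *Ivl* and 215 of *Sbsn*. It was the deepest library, and 18 members had a read in it, against 28 to 35 in the others of its group. Reads of *Lor* per read of *Sprr1a* were 0.362, 0.0978, 0.232 and 0.0527 in stretched stromal libraries 5 to 8, and 0.0444, 0.281, 0.255 and 1.42 in control stromal libraries 1 to 4. They were 0.869, 3.57, 3.80 and 2.17 in stretched immune libraries 1, 2, 7 and 8, and 0.261, 1.36, 3.67 and 1.13 in control immune libraries 3 to 6. All stretched immune values lay above all stretched stromal ones, and the control groups overlapped.

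The S100-fused genes, whose products bind keratin filaments or fill the granules of the granular layer, were near the limit of detection. *Flg* had 0 reads in stretched stromal, 1 in control stromal, 34 in stretched immune (30 of them in library 7) and 2 in control immune libraries. *Hrnr* (hornerin) had 0, 1, 9 and 2 reads in the same order. *Rptn* (repetin) had 9 reads in stretched stromal libraries 7 and 8 and 13 in control immune library 4, and 0 elsewhere. Those are the 3 libraries with many receptor-gene reads, and *Tgm3* had 36 of its 40 stretched stromal reads in libraries 7 and 8 and 39 of its 40 control immune reads in library 4. The *Lce3* genes, known in humans from psoriatic epidermis, had 15 reads each in stretched and control stromal, 31 in stretched immune and 25 in control immune libraries. The 13 *Sprr2* genes together had 81, 41, 27 and 16 reads in these groups.

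**Figure D5:**
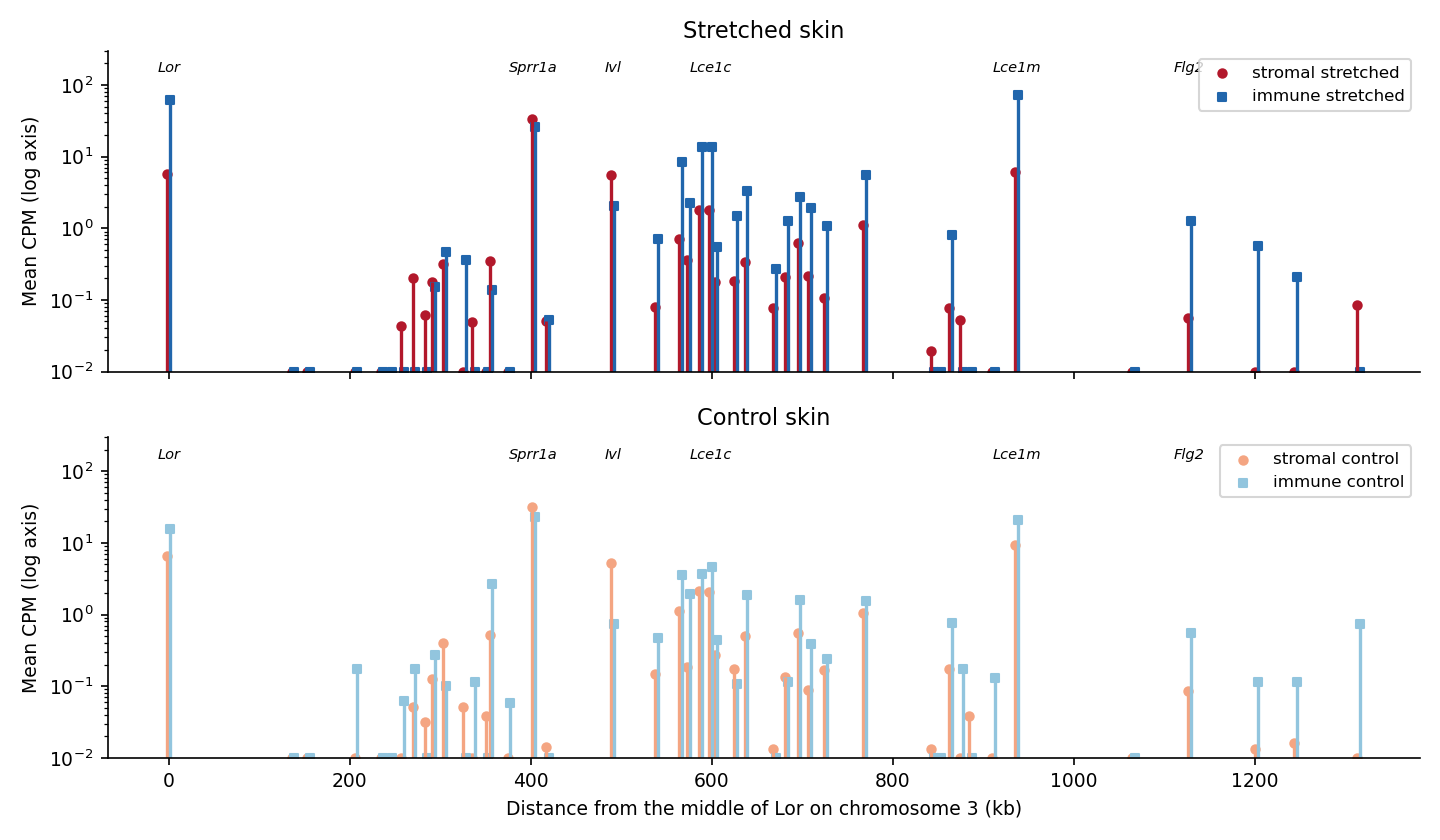
Mean CPM (logarithmic axis, n = 4) of the 45 members on chromosome 3 against distance from the middle of *Lor* in kilobases, for stretched skin (top) and control skin (bottom), stromal as circles and immune as squares. Means below 0.01 CPM, 0 included, are drawn at the foot of the axis. The 14 *Lce1* genes stand higher in immune than in stromal libraries in stretched skin, whereas in control skin *Lce1e*, *Lce1g* and *Lce1h*, all under 0.2 CPM, do not.

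The number of members with a read was 18 to 35 in stretched stromal, 23 to 30 in control stromal, 27 to 29 in stretched immune and 16 to 34 in control immune libraries. Reduced to the depth of the shallowest library (2645421 reads), the expected numbers were 9.20 to 23.2, 14.7 to 19.1, 21.3 to 26.3 and 14.3 to 34. The highest value, in control immune 4, comes from the library with the most receptor-gene reads, and the other control immune libraries reached at most 22.2.

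Keratinocyte markers outside the envelope were summed in the same libraries. The 10 suprabasal markers (among them *Krt1* and *Krt10*, the keratins of the spinous layer) summed to 112 to 268 CPM on the scale of the library total in stretched stromal, 169 to 581 in control stromal, 92.3 to 201 in stretched immune and 34.5 to 1372 in control immune libraries. The 1372 was in control immune 3, the library with high *Sprr1a* and *Sbsn*, and *Krt2* was at 0 in the control stromal and stretched immune groups. *Krt10* averaged 65.2 ± 19.02 CPM in stretched stromal and 32.2 ± 19.5 CPM in stretched immune libraries, with a log2 fold change of 1.14 ± 0.50 (adjusted p = 0.0796, edgeR). Of 8 suprabasal markers tested in stretched skin, 1 (*Calml3*) was called higher and 0 lower in stromal libraries, with a median log2 fold change of 0.66. In control skin 0 of 7 were called, with a median of -1.10. *Calml3* had 0.411, 0.576, 2.25 and 2.50 CPM in stretched stromal libraries 5 to 8, against 0.323 to 0.528 CPM in stretched immune libraries. Its higher values thus came from stretched stromal 7 and 8, which had many receptor-gene reads. The 10 basal markers summed to 549 to 1401, 120 to 1348, 116 to 834 and 71.9 to 1950 in the 4 groups, and 2 of 10 were called higher in stretched and 2 lower in control skin. The hair follicle markers summed to 129 to 692, 14.2 to 347, 9.26 to 124 and 3.56 to 157, and 5 of 6 tested were higher in the stromal libraries of stretched skin. Markers of the sorted cells moved with the fractions: the 8 leukocyte markers summed to 11.99 to 32.0, 9.06 to 25.3, 6033 to 14026 and 4942 to 8893. The 8 fibroblast markers summed to 46437 to 65071, 39489 to 56190, 1374 to 9793 and 1447 to 7243, and all 8 were higher in the stromal libraries of both stretched and control skin. *Cd207*, the marker of Langerhans cells, the leukocytes that live among keratinocytes, was at 0.145 ± 0.169 CPM in stretched stromal and 25.8 ± 8.12 CPM in stretched immune libraries. The 6 markers listed for that cell type summed to 345 to 656, 293 to 451, 17022 to 51779 and 8637 to 19239 in the 4 groups. In stretched immune libraries *Cd74*, *H2-Ab1* and *H2-Aa* averaged 18111, 12918 and 8718 CPM. The sum there thus follows those genes and not *Cd207*, and does not measure Langerhans cells. Of the 6 markers, 4 were lower in the stromal libraries of stretched skin, *Mfge8* was higher (log2 fold change 2.37, adjusted p = 0.00153, edgeR) and *Epcam* did not pass (1.23, adjusted p = 0.0564). *Cd207* was at 0 in control stromal and 2.70 to 109.6 CPM in control immune libraries. Whether keratinocyte RNA carried with leukocytes has a part in the *Lor* and *Lce1* values was not tested.

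Other genes of the pathway were counted from lists. Among 30 neighbours in the epidermal differentiation complex, 22 were tested in stretched skin, of which 5 were higher and 6 lower in the stromal libraries (median log2 fold change -0.49). Over all genes 49.0% were called in stretched and 49.4% in control skin, so the count in stretched skin was at the background. *Crct1*, a cysteine-rich gene next to the *Lce* cluster, averaged 1.42 ± 1.04 CPM in stretched stromal and 18.9 ± 4.51 CPM in stretched immune libraries, a log2 fold change of -3.62 ± 0.58 (adjusted p = 0.000918, edgeR). *2310050C09Rik* averaged 1.88 ± 1.35 and 16.5 ± 5.06 CPM (-2.99 ± 0.58, adjusted p = 0.00243, edgeR). In control skin 2 were higher and 3 lower of 20 tested, and *Crct1* did not pass (2.74 ± 1.79 and 6.36 ± 1.55 CPM in stromal and immune libraries, adjusted p = 0.0559, edgeR). In the immune fraction 0 of 19 were called for stretch, with *Kprp* at 4.08 ± 1.12 CPM in stretched immune and 0.180 ± 0.234 CPM in control immune libraries (adjusted p = 0.134, edgeR). In the stromal fraction 1 was higher and 3 were lower in stretched libraries of 22 tested, the lower ones being *S100a13*, *S100a11* and *S100a6*, calcium-binding S100 proteins, beside 4.98% of all genes. This comparison called 0 of all genes in the fit of all 16 libraries and in those without control stromal 1, 2 or 3 or stretched stromal 7 or 8, so these calls were lost there.

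Among 20 enzymes of epidermal lipids and barrier, 5 of 13 tested were higher and 2 lower in the stromal libraries of stretched skin, and 3 and 2 of 9 in control skin, near the shares over all genes (49.0% and 49.4%). *Smpd1*, the acid sphingomyelinase, averaged 38.6 ± 2.35 CPM in stretched stromal and 13.8 ± 5.02 CPM in stretched immune libraries. *Asprv1*, the protease that processes filaggrin, averaged 3.96 ± 2.94 and 156 ± 277 CPM (log2 fold change -5.18 ± 1.33, adjusted p = 0.00973, edgeR). Neutrophil markers summed to 36316 CPM on the scale of the library total in stretched immune 2 and to 376 to 1067 in the other 3 of its group, and their part in the *Asprv1* value was not tested. Of the 10 genes of corneocyte junctions and plaques, 2 of 9 tested were called higher in the stromal libraries of stretched skin and 2 of 8 in those of control skin. In each, 0 were called lower, beside 49.0% and 49.4% of all genes called in either direction. Log2 fold changes were positive for 9 of 9 in stretched skin (median 1.11). In control skin only the 2 called of the 8 were positive, and the median was -1.31, against -0.08 over all genes. *Ppl* (periplakin), an early envelope plaque protein, was called in both stretched and control skin, at 39.2 ± 10.3 and 15.1 ± 5.93 CPM in stretched stromal and immune libraries. Of 13 skin proteases and inhibitors, 4 of 9 tested were higher and 2 lower in stretched skin, and 1 and 2 of 7 in control skin, beside 49.0% and 49.4% of all genes. *Klk8*, a kallikrein of the granular layer, averaged 0.529 ± 0.243 CPM in stretched stromal and 3.27 ± 0.555 CPM in stretched immune libraries (log2 fold change -2.47 ± 0.44, adjusted p = 0.00154, edgeR).

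Of 17 regulators of late differentiation, 3 were higher and 7 lower in the stromal libraries of stretched skin (17 tested), and 0 and 6 of 15 in control skin, beside 49.0% and 49.4% of all genes. *Hopx* and *Ahr* were lower in both, with *Hopx* at 12.1 ± 5.78 CPM in stretched stromal and 114 ± 29.8 CPM in stretched immune libraries. *Maf* was at 26.3 ± 9.73 CPM in stretched stromal libraries, against 64.8 ± 10.4 CPM in control stromal libraries (log2 fold change -1.30 ± 0.25, adjusted p = 0.0424, edgeR). That call too was lost where the comparison called 0 of all genes. For stretch in the immune fraction, and for the difference of the stretch effects, 0 genes of the 5 pathway lists were called by edgeR. In the stromal fraction 0 of 13 lipid and barrier enzymes, 0 of 10 junction and plaque genes and 0 of 9 proteases and inhibitors were called for stretch.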

How the data were processed

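RNA of CD45+ and CD45- mouse skin cells was made into cDNA with a SMART-Seq mRNA LP kit and into libraries with Nextera XT, per the labels' protocols. FastQC 0.11.9, STAR and the mm10 build are named in the submitters' processing notes. The deposited table holds read counts per gene, not normalized by the authors. The counting tool, annotation, strand setting and treatment of reads with several positions are not given in those notes, the labels or the table, so reads of paralogs and of overlapping antisense genes may be split or lost. Gene names, lengths and coordinates came from the GENCODE M21 annotation, which matched 55394 of 55487 IDs.

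Counts were filtered per comparison (edgeR's filterByExpr, minimum count 10, minimum total 15), scaled with TMM and tested with edgeR's quasi-likelihood test (edgeR 4.0.16 in R 4.3.3), fitted on the 8 libraries compared or, for the difference, on all 16. Adjusted p-values (Benjamini-Hochberg, threshold 0.05) cover all genes tested. CPM are TMM-scaled except the sums over receptor genes and marker lists, which are scaled to the library total. Folds are given for the 12 genes taken by name, the 6 *Lce* and 6 *Sprr* genes with the highest mean CPM, every called member and the 3 members with the smallest p in each comparison, and for up to 3 genes of each other list. Other genes named from the lists, and the ratio of *Lor* to *Sprr1a* reads, were chosen after their values were seen. The members and lists were chosen with earlier results of these data known. Alternatives were RLE and upper-quartile scaling, DESeq2 1.42.0, limma-voom with sample weights (limma 3.58.1), 2 other filters, 1 fit of all libraries, a replicate block, length and GC offsets, and leaving out libraries.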

Additional observations from a re-analysis of the deposited data

Results flagged for a closer look

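In 10 of 92 sets of 4 values (a member in a group), 1 library lay far from the other 3, by a gap that chance gives in about 1 of 20 such sets.

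In stretched stromal libraries, *Lce1l* was at 0 CPM in library 8 and at 1.42 to 1.55 in the others. *Sprr1a* was at 55.3 CPM in stretched stromal library 6 and at 25.0 to 26.98 in the others, and *Tgm1* at 11.1 CPM in library 5 and at 2.40 to 3.41 in the others. In control stromal libraries, *Flg2* was at 0.338 CPM in library 4 and at 0 in the others. *Lce1b* was at 0.422 CPM in control stromal library 2 and at 0.0757 to 0.128 in the others, and *Lce1h* at 0.422 and at 0 to 0.0641.

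Stretched immune library 2 had 2.48 CPM of *Flg2*, against 0.740 to 0.968 in the others of its group, and 2.48 CPM of *Lce1k*, against 0.581 to 0.634. It is also the library with the most neutrophil marker reads of its group. In control immune libraries, *Lce1h* was at 0.459 CPM in library 4 and at 0 in the others, and *Sbsn* at 22.9 CPM in library 3 and at 1.15 to 3.44 in the others.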

How the results depend on the processing

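For stretch in the stromal fraction, 0 of 12 members tested were called, beside 800 of 16074 genes. DESeq2 called 1 of 12 (2312 of 16074 genes), limma-voom 3 of 12 (3599 of 16074) and the fit with no filter 2 of 45 (2115 of 41025). Leaving out 1 library gave 0 members called, beside 0 to 1589 of all genes. For stretch in the immune fraction, 0 of 13 were called, beside 0 of 14183 genes. DESeq2 called 3 of 13 (781 of 14183 genes), limma-voom 2 of 13 (888 of 14183) and the fit of all 16 libraries 1 of 18 (667 of 18295). Leaving out 1 library gave 0 to 1 members called, beside 0 to 45 of all genes. Between the fractions of stretched skin, 12 of 17 were called, beside 8380 of 17116 genes. With no filter 19 of 43 were called (8774 of 41452 genes), and with at least 50 reads in at least 4 libraries 6 of 9 (6866 of 12484). Leaving out 1 library gave 10 to 13 members called, beside 7002 to 8222 of all genes. Between those of control skin, 3 of 12 were called, beside 7484 of 15142 genes. DESeq2 called 6 of 12 (8259 of 15142 genes) and limma-voom 7 of 12 (8814 of 15142). Leaving out 1 library gave 1 to 5 members called, beside 6366 to 8566 of all genes. For the difference of the stretch effects, 0 of 18 were called, beside 0 of 18295 genes. Limma-voom called 6 of 18 (1453 of 18295 genes) and the fit with no filter 3 of 45 (3924 of 44374). Leaving out 1 library gave 0 to 1 members called, beside 0 to 1495 of all genes. The causes were not tested.

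The sign of the stromal stretch effect of *Lor* turned to 0.21 without control immune 4 and stretched stromal 7 and 8, to 0.35 without control stromal 4 and to 0.13 without stretched stromal 8 (log2). Leaving out 1 library gave -0.61 to 0.35. That of *Tgm1* turned to -0.016 without stretched stromal 5, in a range up to 1.05. The immune stretch effect of *Sbsn* turned to 0.099 with limma-voom, to 0.26 with the replicate block and to 0.48 without control immune 3, in a range from -1.49 when 1 library was left out.

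No pairing of samples with the same number was seen. The correlations of their deviations ran from -0.12 to 0.16 over 8 pairs, 3 of them over 0.1, and 1 of 16 libraries correlated best with its own number. Each pair joins a stromal and an immune library, so weak correlations cannot tell whether the same number means a shared animal or batch. With the number as a replicate block, 5 of 18 members tested were called between the fractions of stretched skin, beside 4780 of all 18295 genes. Between those of control skin 0 of 18 members were called, beside 7203 of all 18295 genes.

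Over all genes, calls for stretch ran from 0 to 3599 in the stromal fraction (800 as reported) and from 0 to 888 in the immune fraction (0 as reported), and calls for the difference from 0 to 3924. The all-gene median of the difference was -0.03, and 0.19 with RLE and 0.24 with upper-quartile scaling, where the members' median was -1.20 and -1.11. Depth limits the members with few reads: of the 50, 12 to 18 could be tested.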
